A study of Zea mays with 6 samples.

Results

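The first 30 Mb of maize chromosome 7 were examined in kernels of o11 homozygous mutants and of wild-type (WT) plants at 15 days after pollination. Rows of the deposited tables were taken whose locus lies on chromosome 7 and starts before 30 Mb on B73 RefGen_v3. Of 515 such rows, 344 had at least 1 FPKM (fragment counts scaled to locus length and to library size) in at least 3 of the 6 libraries. These 344 loci are the members described here, out of 22314 loci that passed the same filter in the whole series and 32666 rows in all. Among the 171 rows left out, 132 reached 1 FPKM in 0 libraries, 21 in 1 library and 18 in 2 libraries.

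The study holds 3 libraries of o11 kernels and 3 of WT kernels, numbered 1 to 3 in each genotype. The labels give kernel as the tissue, while the design text speaks of endosperm. They name no inbred line or allele beyond the genotype, and no treatment. For replicates 2 and 3 of both genotypes the RNA came from pooled kernels, per the labels' protocols, and replicate 1 carries no such statement. The files pair no locus with a gene name, so the tissue label was not checked against marker genes, and loci are given by their position.

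The maize gene opaque11, abbreviated o11, codes for a transcription factor of the basic helix-loop-helix family that acts in the endosperm. That tissue fills the kernel with starch and storage protein. Its cells at this age devote much of their messenger RNA to seed storage proteins. The most abundant of these in maize, the alpha zeins, are encoded by families of near-identical genes, many of them in tandem clusters, and many alpha zein coding sequences have no introns. Which loci here encode storage proteins is not given in the sources used.

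The region was selected on the o11 against WT contrast itself, because 15.8% of its loci between 10 and 20 Mb changed at least 2-fold, against 4.17% in the whole series, and because a stretch of abundant loci between 18755936 and 18955697 was lower in o11. Its o11 against WT values are therefore a description, and its calls support nothing by themselves. The relation of the libraries to each other, below, was not used for that choice. "Rose" and "fell" are written of loci past an adjusted p of 0.05 in limma with the replicate number as a block, adjusted over all 22314 loci. Changes are o11 minus WT on the log2(FPKM + 1) scale, as the mean of the 3 same-numbered pairs, with the standard error (SE) of that fit. This scale understates the change of low loci.

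In o11, 91 of the 344 loci changed, 26.5%, against 19.2% over all loci tested. Of these 40 rose (11.6%, against 9.83% over all loci) and 51 fell (14.8%, against 9.33%). Changes of at least 2-fold numbered 28, or 8.14% against 4.17% over all loci. They were 12 rises (3.49% against 2.94%) and 16 falls (4.65% against 1.22%). Without the block, limma called 3 of the 344 (0.872%, against 0.793% over all loci), namely 3 rises against 0.520% and 0 falls against 0.273%. An unadjusted p under 0.05 was reached by 57 of the 344 without the block and by 145 with it, 16.6% and 42.2%, against 14.9% and 36.8% over all loci. The median change over the 344 was 0.00, as it was over all loci. The 3 o11 values and the 3 WT values did not overlap for 77 members, 22.4%, against 21.5% of all loci. Among them 34 were higher in o11 (9.88%, against 9.86% of all loci) and 43 lower (12.5%, against 11.7%). All 3 pairs had the same sign at 225 members, 65.4% against 59.1% of all loci, with 111 higher in o11 (32.3% against 29.4%) and 114 lower (33.1% against 29.6%). Calls with the block depended on the libraries of replicates 1 and 2. In that fit a library without its same-numbered partner adds nothing to the estimate of the change. Leaving out either library of a pair is therefore nearly the same check, here and at the named loci below. With o11 replicate 1 left out 16 of the 344 were called, with WT replicate 1 left out 13, and with replicate 2 of either genotype left out 27. Leaving out o11 replicate 3 gave 102 calls and leaving out WT replicate 3 gave 100. Among the other 1443 tested loci of chromosome 7, 18.1% were called and 4.09% were called at least 2-fold.

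**Figure D1:**
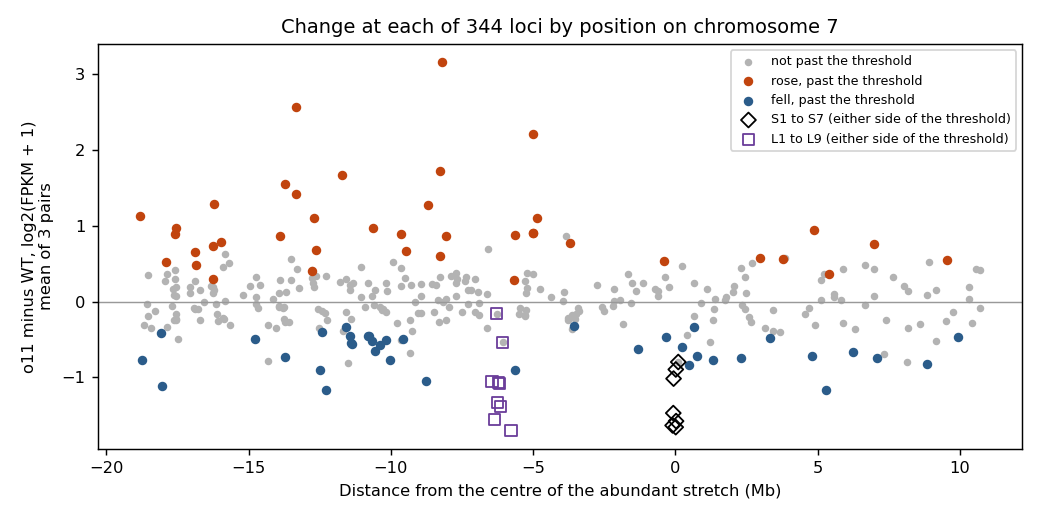
Change of each of the 344 loci (y axis, o11 minus WT, log2(FPKM + 1), mean of 3 pairs) against its distance in Mb from the centre of the abundant stretch (x axis). Orange and blue points are loci past the threshold with the replicate block, grey points are not, and open symbols mark S1 to S7 and L1 to L9, called or not. Of the 16 falls of at least 2-fold, 12 lie at S1 to S7 and L1 to L9, and the rises of at least 2-fold lie to the left of both or close to the right of L9.

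By 10 Mb of position, 25.9%, 30.7% and 20.8% of the loci were called, against 19.2% in the whole series. From 0 to 10 Mb, 21 of 158 loci rose and 20 fell, with 7 rises and 2 falls of at least 2-fold. From 10 to 20 Mb, the window that the selection used, 13 of 114 rose and 22 fell, with 5 rises and 13 falls of at least 2-fold. From 20 to 30 Mb, 6 of 72 rose and 9 fell, with 0 rises and 1 fall of at least 2-fold. In steps of 2 Mb, the windows at 12 to 14 Mb and at 18 to 20 Mb held 7 and 5 of the 16 falls of at least 2-fold. The second of these windows had a median change of -0.39 over its 24 loci, and of 0.07 over the 17 that lie outside the stretch of abundant loci described next.

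**Figure D2:**
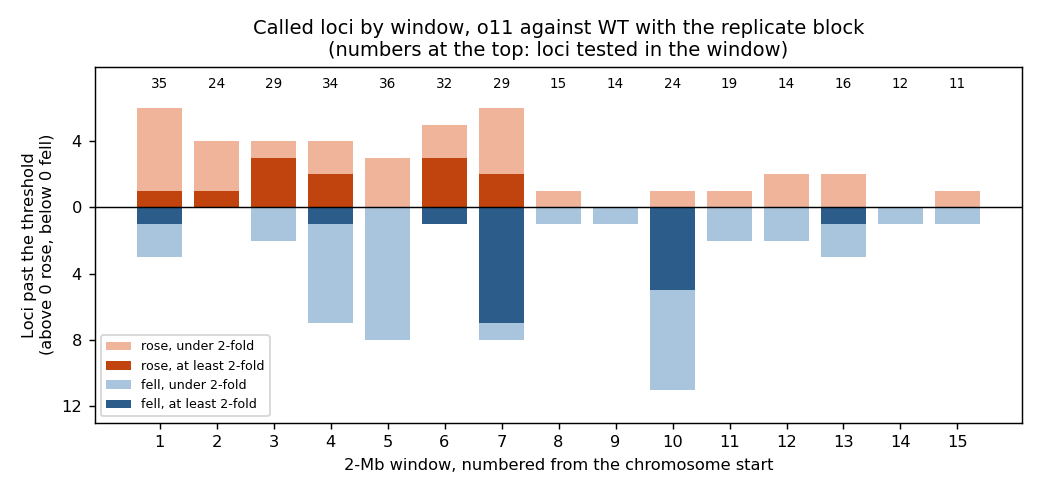
Loci past the threshold with the replicate block in each of 15 windows of 2 Mb (x axis, numbered from the chromosome start), with rises drawn above 0 and falls below it (y axis, number of loci). Darker parts are changes of at least 2-fold, and the numbers at the top give the loci tested. Windows 7 and 10 hold 7 and 5 of the falls of at least 2-fold.

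From 18755936 to 18955697 lay 7 tested loci, called S1 to S7 here in order of position, and all 7 had a lower mean in o11. S1 (18755936 to 18756661), S2 (18779575 to 18780300), S4 (18865424 to 18866146), S6 (18877460 to 18878182) and S7 (18954749 to 18955697) averaged at least 300 FPKM over the 6 libraries and form the abundant stretch. S3 (18789875 to 18790599) and S5 (18867732 to 18868453) lie between them at far lower levels, with means of 49.8 and 61.1 FPKM. The first locus below the limit is thus S5, and the last above it is S7 at 310 FPKM. S1 to S6 span 722 to 726 bases each and S7 spans 949, against a median of 3342.5 over the 344 members. How the authors assigned reads that match several near-identical copies is not given in the sources used, which leaves single loci uncertain, so the sum of the 5 is given as well.

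S4 held 7717, 8253 and 13306 FPKM in o11 replicates 1 to 3, against 30971, 25362 and 33664 FPKM in WT replicates 1 to 3. S6 held 5708, 7268.5 and 9437 FPKM in o11 and 21283, 18428 and 26393 FPKM in WT. For both loci every o11 library lay below every WT library, and the change was -1.65 (SE 0.23) for S4 and -1.57 (SE 0.20) for S6. The 2 loci had WT levels 4.01-, 3.07- and 2.53-fold (S4) and 3.73-, 2.54- and 2.80-fold (S6) above o11 in pairs 1 to 3. Both fell with the block and did not pass without it. The calls at both ended when either library of pair 1 or pair 2 was left out (adjusted p in limma up to 0.0909 and 0.0725). Each such run takes the whole pair out of the estimate. Both calls also ended with quantile normalization, where the changes were -1.08 and -0.78.

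S1 and S2 followed another pattern across the libraries. S1 held 777, 602 and 3932 FPKM in o11 and 3421, 2944 and 5449 FPKM in WT. S2 held 1902, 1348.5 and 8155 FPKM in o11 and 6596, 6203 and 10859 FPKM in WT. In each, o11 replicate 3 lay above the lowest WT library, so the genotypes overlapped. The WT level was 4.40-, 4.89- and 1.39-fold that of o11 at S1 in pairs 1 to 3, and 3.47-, 4.60- and 1.33-fold at S2. Both fell with the block, at -1.63 (SE 0.38) and -1.47 (SE 0.36). Their calls ended when a replicate 1 or 2 library of either genotype was left out (adjusted p in limma up to 0.167 at S1 and 0.185 at S2). That of S2 also ended with quantile normalization (-1.21, adjusted p in limma 0.107) and with a pseudocount of 0.1 (0.0557).

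S7 was split between the pairs. It held 124, 92.0 and 628 FPKM in o11 and 340, 301 and 372 FPKM in WT, so it was lower in o11 in pairs 1 and 2 and higher in pair 3 (mean change -0.80, SE 0.49, not past the threshold). The low loci S3 and S5, named after their values were seen, fell as well. S3 held 26.0, 26.5 and 44.0 FPKM in o11 against 52.3, 50.3 and 99.7 FPKM in WT, without overlap (-1.01, SE 0.08). S5 held 28.8, 30.5 and 71.3 FPKM in o11 against 47.2, 86.0 and 103 FPKM in WT, overlapping at o11 replicate 3, and fell by 0.89 (SE 0.19).

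**Figure D3:**
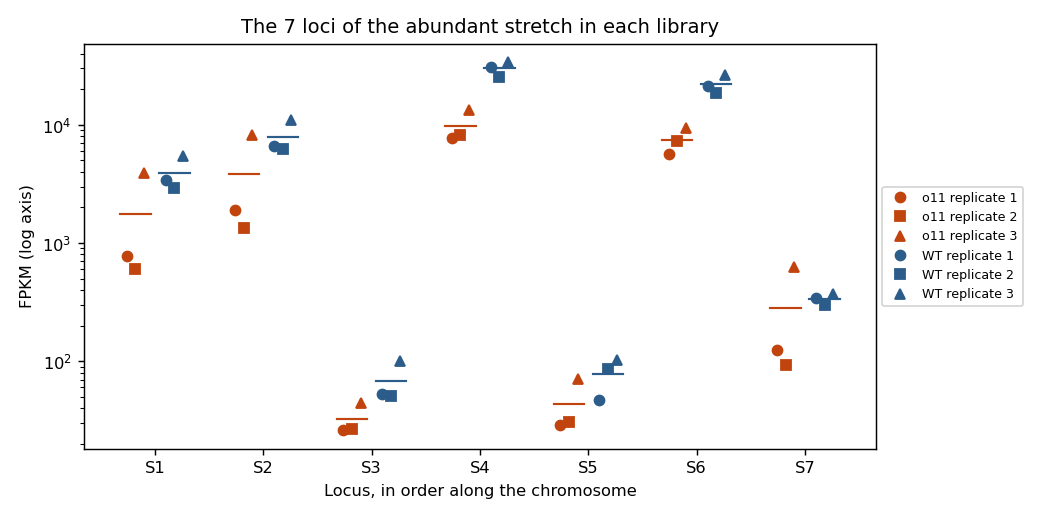
FPKM (y axis, log scale) of S1 to S7 (x axis) in each library, with o11 left of WT at each locus, a symbol for each replicate and a bar at the mean of the 3 libraries. At S4 and S6 all o11 libraries lie below all WT libraries. At every locus shown o11 replicate 3 is the highest o11 library. It stands at 5.70, 5.02 and 5.81 times the mean of o11 replicates 1 and 2 at S1, S2 and S7, against 1.67 and 1.45 times at S4 and S6.

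Summed over the 5 abundant loci, o11 libraries held 16229, 17563 and 35458 FPKM, and WT libraries 62611, 53238 and 76737 FPKM. Since the sum was chosen for being lower in o11, it is given without a test. Its pairwise log2 ratios were -1.95, -1.60 and -1.11. The composition of the sum was alike in the 3 WT libraries, where S4 made up 43.9% to 49.5% and S1 with S2 16.0% to 21.3%. In o11 replicate 3, S4 made up 37.5% and S1 with S2 34.1%, against 47.6% and 16.5% in o11 replicate 1 and 47.0% and 11.1% in o11 replicate 2. The smaller difference in pair 3 was therefore located in S1, S2 and S7 more than in S4 and S6: S1 with S2 had a log2 ratio of -0.43 in pair 3, against -1.90 and -2.23 in pairs 1 and 2, while S4 with S6 had -1.40 against -1.96 and -1.50.

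The stretch held 2.19%, 2.11% and 3.57% of the FPKM summed over all tested loci in o11, and 7.79%, 5.64% and 7.19% in WT. The other members, S3 and S5 included, together held 1.49%, 1.55% and 1.45% in o11 and 1.52%, 1.57% and 1.40% in WT. The difference in that share was -0.026, -0.018 and 0.042 percentage points in pairs 1 to 3, smaller than the spread between libraries of 1 genotype (SD 0.054 in o11 and 0.085 in WT, n = 3 each). Leaving out the 10 most abundant of these members gave a mean difference of 0.118 points. The spread of that smaller share between libraries was not computed, so the SDs above do not apply to it. In bulk samples fewer cells of a type and less RNA per cell cannot be told apart.

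Within 1 Mb of the stretch lay 16 other members, of which 5 fell (31.2%, against 9.33% of all loci) and 1 rose (6.25%, against 9.83%). The median of their mean changes was 0.03, while the medians within pairs 1 to 3 were -0.021, -0.024 and -0.082. On the left 6 of 7 loci had a change above 0 (median 0.17), and on the right 7 of 9 had a change below 0 (median -0.34), a difference between the sides that was not tested. The nearest locus on the left (18620330 to 18626341) held 14.6, 14.3 and 10.8 FPKM in o11 and 15.4, 12.3 and 7.73 FPKM in WT, a change of 0.19 (SE 0.13). The next (18531204 to 18535522) held 14.5, 13.4 and 13.3 FPKM in o11 and 22.1, 16.8 and 19.3 FPKM in WT, and fell by 0.46 (SE 0.10), a call that ended without any 1 library of replicates 1 and 2 (adjusted p in limma up to 0.185). An abundant locus further left (18484063 to 18486515) held 220, 320 and 430 FPKM in o11 and 154, 272 and 370 FPKM in WT (0.32, SE 0.09, not past the threshold). It was higher in o11 in all 3 pairs, the opposite of the stretch 269 kb away.

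On the right, 2 rows share the interval 19063721 to 19101243, and positions alone do not tell them apart. The row with the lower mean held 24.8, 21.8 and 25.7 FPKM in o11 and 35.7, 30.5 and 46.9 FPKM in WT, and fell by 0.60 (SE 0.10), a call that likewise ended without any 1 library of replicates 1 and 2 (adjusted p in limma up to 0.0965). The other held 79.1, 116 and 25.5 FPKM in o11 and 75.9, 127 and 8.49 FPKM in WT, with no change past the threshold (0.47, SE 0.32). The next locus (19265565 to 19270520) held 10.2, 11.1 and 8.91 FPKM in o11 and 12.2, 14.8 and 14.9 FPKM in WT, without overlap, and was not past the threshold (-0.44, SE 0.12). The largest fall on this side was at 19331382 to 19358462, with 11.6, 11.6 and 13.9 FPKM in o11 and 22.3, 18.5 and 28.3 FPKM in WT (-0.83, SE 0.10). Each of the 16 neighbours had a smaller mean change than S1 to S6, while that of S7 was within their range.

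A second group of falls lay between 12405146 and 13074744, where all 9 tested loci, called L1 to L9 in order of position, had a change below 0 and 7 fell. This group was picked out after its values had been seen. L2 (12484473 to 12485342), L4 (12591109 to 12591978), L5 (12626477 to 12627199), L6 (12676389 to 12677577), L7 (12709254 to 12710092) and L9 (13073446 to 13074744) span 723 to 1299 bases and fell by 1.07 to 1.70. L9 held 43.7, 40.8 and 1.89 FPKM in o11 and 145, 95.0 and 12.1 FPKM in WT (-1.70, SE 0.19). L2 held 13.4, 9.86 and 1.29 FPKM in o11 and 43.4, 36.2 and 4.51 FPKM in WT (-1.56, SE 0.13). In both, o11 was below WT in every pair, yet WT replicate 3 lay below o11 replicates 1 and 2, so the genotypes overlapped.

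L4 held 35.1, 29.7 and 1.78 FPKM in o11 and 87.6, 60.3 and 8.06 FPKM in WT (-1.33, SE 0.15). L7 held 49.9, 44.5 and 2.11 FPKM in o11 and 114, 87.0 and 11.7 FPKM in WT (-1.39, SE 0.22). L5 and L6, which the rule for named loci did not pick, were at -1.07 (SE 0.10) and -1.09 (SE 0.11). The calls at L4, L7 and L9 ended without the replicate 1 library of either genotype (adjusted p in limma up to 0.0578, 0.0722 and 0.0575), and that at L2 held without any 1 library. The 6 loci were thus lower in o11 and, in both genotypes, much lower in replicate 3. With L8 (12776201 to 12779156), which held 3.35, 2.12 and 0.16 FPKM in o11 and 5.40, 4.32 and 0.41 FPKM in WT and did not pass the threshold, they summed to 231, 193 and 12.6 FPKM in o11 and 576, 411 and 52.2 FPKM in WT.

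The other 2 loci of the group were not lower by a like amount in replicate 3 (differences of -0.23 at L1 and 0.07 at L3). L3 (12568476 to 12569538) lies between L2 and L4 and held 49.2, 51.8 and 47.6 FPKM in o11 and 48.5, 57.2 and 61.7 FPKM in WT (-0.16, not past the threshold). L1 (12405146 to 12407775), a low locus, held 0.88, 1.45 and 0.72 FPKM in o11 and 3.77, 2.82 and 2.91 FPKM in WT, without overlap, and fell by 1.06 (SE 0.18). L3 thus differed from the loci on both sides of it.

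**Figure D4:**
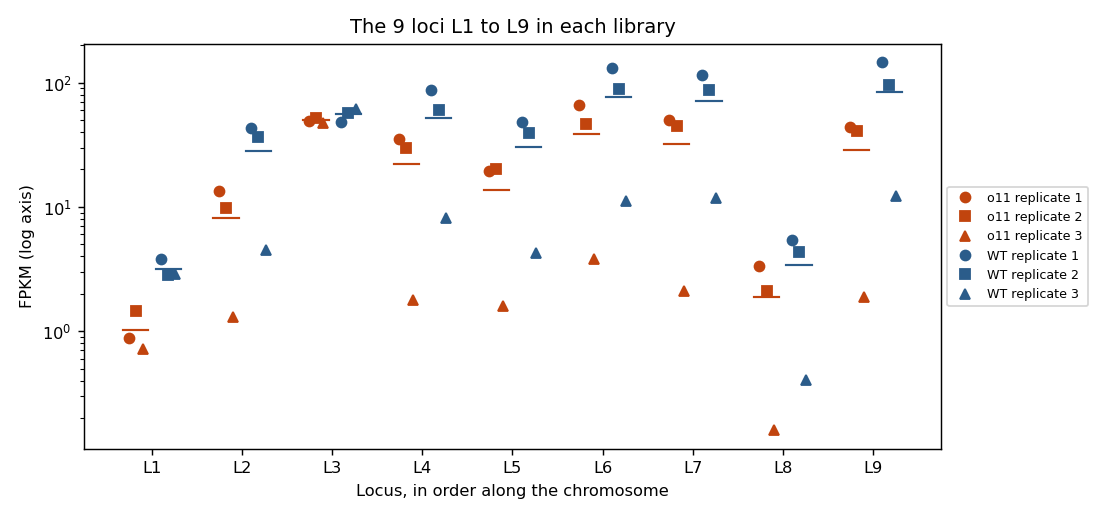
FPKM (y axis, log scale) of L1 to L9 (x axis) in each library, with o11 left of WT at each locus, a symbol for each replicate and a bar at the mean of the 3 libraries. At L2 and L4 to L9 the replicate 3 libraries of both genotypes, drawn as triangles, lie far below replicates 1 and 2, while L1 and L3 show no such drop.

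The difference between replicate 3 and replicates 1 and 2 is a contrast that was not itself used to choose the region. The shares behind that choice came from the fit with the replicate block, which takes such differences out. It was fitted in limma with genotype held, over all 22314 loci. Of the 344 members, 41 were called, 11.9% against 11.8% over all loci, a share near that of the series. They were 18 higher in replicate 3 (5.23% against 4.54%) and 23 lower (6.69% against 7.25%). Those at least 4-fold higher were 2, or 0.581% against 0.215%. Those at least 4-fold lower in replicate 3 numbered 15 of 344, 4.36% against 1.66% over all loci, and 6 of the 15 were L2, L4 to L7 and L9. Their adjusted p in limma ran from 0.000464 at L5 to 0.00155 at L2, and L8 passed as well (0.00696). In o11, the mean of replicates 1 and 2 was 9.0 to 22.3 times that of replicate 3 over these 7 loci, and in WT it was 8.62 to 12 times. With only 1 replicate 3 library the contrast called fewer members, 14 without o11 replicate 3 and 7 without WT replicate 3. The labels do not say how replicate 3 differed from the others.

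The other strong drops in replicate 3 were spread over the region, and they did not share one o11 against WT direction. A locus at 6575550 to 6579920 held 147, 141 and 5.70 FPKM in o11 and 244, 243 and 25.6 FPKM in WT (replicate 3 difference -3.82, adjusted p in limma 0.00159), and it fell in o11 by 1.17. An abundant locus nearby (6361037 to 6362223) held 376, 566 and 36.3 FPKM in o11 and 562, 907 and 102 FPKM in WT, and fell by 0.91 (SE 0.19), a call that ended without any 1 library of replicates 1 and 2 (adjusted p in limma up to 0.0854). Beyond L9, the locus at 13216517 to 13217691 held 28.9, 34.7 and 0.31 FPKM in o11 and 11.7, 16.8 and 0 FPKM in WT. It rose in o11 (0.87, SE 0.18), against the direction of L9, and dropped in replicate 3 by 4.28 (adjusted p in limma 0.000806). Apart from the locus at 6361037, the loci described for replicate 3 outside L1 to L9 were chosen after their values were seen.

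A locus at 23415258 to 23416266 was listed at 0 in both replicate 3 libraries, against 12 and 40.5 FPKM in o11 replicates 1 and 2 and 16.8 and 41.8 FPKM in WT replicates 1 and 2. In the other direction, a locus at 9195353 to 9199334 held 0.90, 0.90 and 6.40 FPKM in o11 and 1.25, 1.48 and 12.5 FPKM in WT (replicate 3 difference 2.24, adjusted p in limma 0.00246). Of the 41 loci called in this contrast, 22 were not past the threshold between the genotypes and 19 were, 5.52% of the members against 2.34% of all loci called in both. Transcripts of the plastid and mitochondrial genomes, which were taken as a sign of RNA quality, summed to 35.1, 228 and 54.7 FPKM in o11 and 37.0, 268 and 143 FPKM in WT. They were highest in replicate 2, and their part in these results was not tested.

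**Figure D5:**
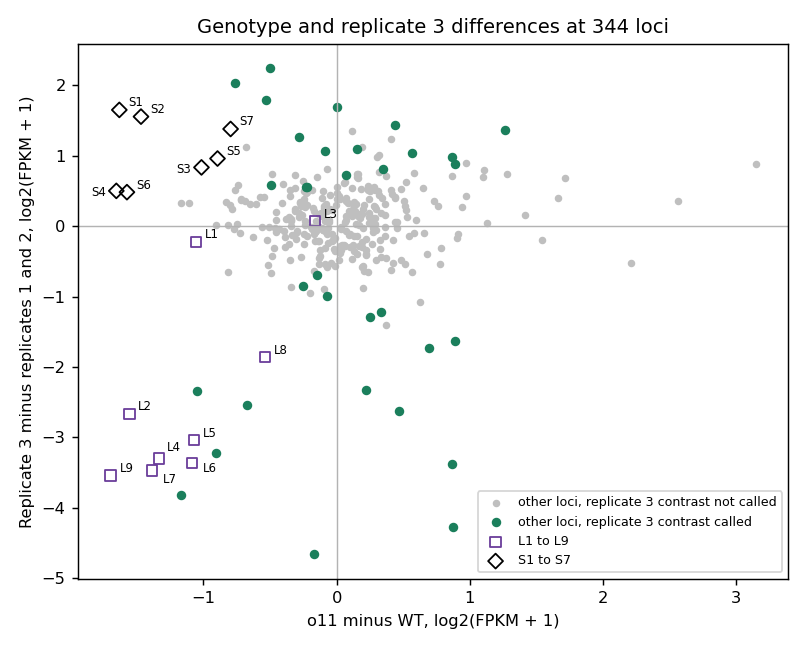
Difference between replicate 3 and replicates 1 and 2 (y axis) against the difference between o11 and WT (x axis), both on the log2(FPKM + 1) scale, for the 344 loci. Both axes come from the same 6 libraries, and green points are other loci called in the replicate 3 contrast. S1 to S7 lie at the upper left, L2 and L4 to L9 at the lower left, and L1 and L3 stand apart from the rest of their group.

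All 12 rises of at least 2-fold lay in the first 14 Mb, where most members lie as well. They numbered 7 among the 158 members from 0 to 10 Mb, 5 among 114 from 10 to 20 Mb and 0 among 72 from 20 to 30 Mb. The largest was at 10656437 to 10658172, with 83.4, 137 and 267 FPKM in o11 and 9.96, 19.1 and 19.3 FPKM in WT (3.15, SE 0.19), a mean 10.1 times that of WT. A locus at 5528435 to 5532240 held 12.5, 17.9 and 25.2 FPKM in o11 and 1.65, 2.84 and 2.21 FPKM in WT (2.56, SE 0.18). A locus at 13850116 to 13852287 held 9.27, 9.34 and 6.91 FPKM in o11 and 0.99, 1.82 and 0.50 FPKM in WT (2.21, SE 0.16). These are the 3 members that also passed without the block, and at each the genotypes did not overlap. Leaving out any 1 library ended all 3 calls without the block, while with it they held under each alternative run, with adjusted p in limma up to 0.0253, 0.0269 and 0.0325.

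Some rises had a neighbour that rose as well. Next to the second of these loci, the locus at 5520895 to 5524522 held 88.6, 154 and 130 FPKM in o11 and 31.6, 58.2 and 48.5 FPKM in WT (1.42, SE 0.07). Beside the third, 2 loci at 13853249 to 13859639 and 13860831 to 13862429 rose by 0.91 (SE 0.21) and 0.90 (SE 0.21), and held 235 to 320 FPKM and 204 to 252 FPKM in o11, against 109 to 180 FPKM and 86.7 to 138 FPKM in WT. Near the largest rise, the more abundant of 2 rows sharing 10574421 to 10581444 held 75.9, 116 and 115 FPKM in o11 and 16.3, 32.3 and 49.7 FPKM in WT (1.72, SE 0.19). A locus nearby at 10699275 to 10703311, with 16.8, 22.6 and 25.5 FPKM in o11 and 16.1, 23.4 and 25.7 FPKM in WT, had a change of 0.00 (SE 0.08). This locus and the neighbours of the third rise were chosen after their values were seen. The abundant locus at 10798507 to 10801399 held 366, 350 and 702 FPKM in o11 and 200, 190 and 389 FPKM in WT (0.87, SE 0.07). The genotypes overlapped there, since o11 replicates 1 and 2 lay below WT replicate 3, but o11 was above WT in every pair. That call ended without WT replicate 1 (adjusted p in limma 0.0505).

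The other named rises lay elsewhere in the region. A locus at 7123031 to 7124333 held 89.6, 141 and 148 FPKM in o11 and 25.8, 46.7 and 46.4 FPKM in WT (1.66, SE 0.07), a near-constant ratio over the pairs. A locus at 2621256 to 2623557 held 3.96, 5.09 and 8.83 FPKM in o11 and 0.70, 2.29 and 2.70 FPKM in WT (1.28, SE 0.17). The locus at 10170663 to 10171849 held 6.56, 8.83 and 19.4 FPKM in o11 and 1.86, 3.01 and 8.47 FPKM in WT (1.27, SE 0.11). The genotypes overlapped only at the last of these 3 loci. The call at 2621256 ended without the replicate 1 library of either genotype (adjusted p in limma up to 0.0730).

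Between 7.2 and 9.3 Mb, an interval set after its values had been seen, 12 of 39 tested loci fell and 2 rose, against 9.33% and 9.83% of all loci. The 12 changes ran from -0.77 to -0.33, with 0 of them at least 2-fold. The genotypes did not overlap at 11 of these 12 called loci, and over all loci, called or not, 11.7% had o11 lower without overlap. These 2 shares are of unlike sets, since called falls are more often without overlap. The share among called falls of the whole series is not given here. The most abundant was 1 of 2 rows sharing 8051536 to 8065662, with 250, 260 and 251 FPKM in o11 and 311, 358 and 379 FPKM in WT (-0.45, SE 0.09). Its call ended without any 1 library of replicates 1 and 2 (adjusted p in limma up to 0.130), and the other row of that interval did not pass the threshold (0.24). These 12 loci span 2998 to 22428 bases, against 722 to 949 for S1 to S7 and 723 to 2956 for L1 to L9. The median over the 344 members was 3342.5 bases.

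The most abundant member outside the stretch was a locus of 719 bases at 24164578 to 24165296. It held 937, 1240 and 1446 FPKM in o11 and 2130, 3018 and 2972 FPKM in WT, without overlap, and fell by 1.17 (SE 0.11). The call ended without the replicate 1 library of either genotype (adjusted p in limma up to 0.0524). It is the 1 fall of at least 2-fold beyond 20 Mb. Next in abundance, the locus at 20176370 to 20179400 held 408, 440 and 545 FPKM in o11 and 490, 545 and 614 FPKM in WT (-0.25, SE 0.08, not past the threshold).

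Among the members of this region the large falls lay mostly at short loci, which was not so over the whole series. Of the 16 falls of at least 2-fold, 13 were at loci of at most 1300 bases, as were 3 of the 12 such rises and 56 of the 344 members. Among those 56 short members 18 fell and 8 rose, 32.1% and 14.3%. Over all tested loci of that length in the series, 7.04% fell and 15.2% rose, so rises were the more frequent. Of the longer loci of the series, 9.69% fell and 9.01% rose. Of the 16 large falls, 12 lay in the 2 groups described above, so these shares rest largely on S1 to S7 and L1 to L9. Both groups were picked for their lower values in o11, so the shares support no link of length with the falls, and no test was made. By level, 12 of the 31 members with a mean of at least 100 FPKM fell and 7 rose, 38.7% and 22.6%, against 18.8% and 20.3% of all loci at that level. The 5 loci of the abundant stretch, for which the region was selected, are among the 31 and gave 4 of the 12 falls. Of the 162 under 10 FPKM, 9 fell and 16 rose, 5.56% and 9.88%, against 4.04% and 8.79%.

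At the limits of the selection, the last members before 30 Mb (29554301 to 29556602 and 29574660 to 29574899) had changes of -0.09 and 0.41, and the first loci beyond it (30284708 to 30286122 and 30517199 to 30518948) had 0.12 and -0.04. None of the 4 was past the threshold. The members that entered the filter with the lowest third-highest value stood at 1.01 and 1.04 FPKM, and the rows that just missed it at 0.99 and 0.96 FPKM. No row of the region was at 1 FPKM or more in every library of 1 genotype and at 0 in every library of the other, and 3 members were listed at 0 in some library.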

How the data were processed

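The authors deposited FPKM, per the file headers, a single value for each locus in each library. For replicate 1 of both genotypes the tool named is Bowtie 0.12.2, for replicates 2 and 3 TopHat and Cufflinks, and the build is B73 RefGen_v3, all per the submitters' processing notes. The annotation and strand setting are not given in the sources used here, and values at 0 can be failed estimates. Starts are printed counted from 1. Summed FPKM per library ran from 784761 to 1072271. Depths relative to WT replicate 1, from the steps between values under 0.3 FPKM (log2 tolerance 0.02), were 0.892 to 1.31. The number of fragments is unknown.

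log2(FPKM + 1) was fitted with limma 3.58.1 (R 4.3.3, mean-variance trend) over 22314 loci (1 FPKM or more in 3 libraries or more), with Benjamini-Hochberg adjustment. The planned fit had genotype alone. Deviations of same-numbered libraries from their genotype means correlated at 0.75, 0.67 and 0.76 over loci, each over 0.1, so libraries of 1 number were treated as pairs and the fit with the replicate block is given throughout. The labels do not state this pairing, nor that libraries came from separate plants. The p-values therefore reflect only the spread among these 6 libraries, which may be technical. The 2 tool sets coincide with replicate 1 against replicates 2 and 3, each with libraries of both genotypes. The fits were also run on data simulated from the blocked fit's own estimates with independent noise. Such a run cannot show how well the model suits these libraries.

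Named loci were the abundant stretch (mean of at least 300 FPKM), members called without the block, the 8 largest rises and 8 largest falls with the block of 1 sign in all pairs and at least 5 FPKM in the higher mean, the 3 nearest loci on each side of the stretch, the 6 most abundant others, and loci present in only 1 genotype. Members and lists were chosen with earlier results of these data known. No genome of this build was used, so no sequence is shown.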

Additional observations from a re-analysis of the deposited data

How the results depend on the processing

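Chosen after seeing the data were all alternatives within the blocked fit and those without S1 to S7 or L1 to L9. Without the block, the 3 calls became 91 with the replicate block (paired fit), 1 with a pseudocount of 0.1, 1 with no filter on low values, 5 with quantile normalization, 5 with upper-quartile scaling, 0 in replicates 2 and 3 alone and 0 to 0 when 1 library was left out. With the block, the 91 calls became 56 with no filter, 12 in replicates 2 and 3 alone and 13 to 102 without 1 library, and the 28 of at least 2-fold became 11 in replicates 2 and 3 alone and 12 to 29 without 1 library, with 23 left outside the stretch. Within a fit, all runs without 1 library have the same residual degrees of freedom, fewer than with every library. The cause of these shifts was not tested. The 41 calls of the replicate 3 contrast were 7 to 55 without 1 library. The stretch's mean log2 ratio stayed between -1.77 and -1.36 with 1 pair left out. The median of its neighbours (0.03) was -0.12 within 0.5 Mb and 0.073 with upper-quartile scaling, and -0.00457 to 0.0277 with 1 pair left out. The share difference of the other members (-0.000540 points) was 0.118 without the 10 most abundant of them and -0.0218 to 0.0121 with 1 pair left out. Some changes turned sign when a library was left out, none of them past the threshold there. Without the block, the locus at 18620330 ranged from -0.067 (WT replicate 3 left out) to 0.39, that at 18484063 from -0.025 (WT replicate 1) to 0.60, the more abundant row at 19063721 from -0.66 (WT replicate 3) to 1.22, and that at 6361037 from -1.84 to 0.31 (o11 replicate 3). With the replicate block the row at 19063721 ranged from -0.034 to 0.77, and was -0.034 in replicates 1 and 2 alone. Of the other values for named loci with the block, 61 lost and 9 gained the call.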

Other observations

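Of the 344 members, 30 rows lie on 17 intervals that other rows of the files share, and rows of 1 interval did not always change alike. At 21151568 to 21162260, 1 row held 18.5, 17.5 and 17.5 FPKM in o11 and 31.8, 27.9 and 32.1 FPKM in WT, and fell by 0.75 (SE 0.08). The other row held 12.1, 18.6 and 17.9 FPKM in o11 and 8.26, 16.8 and 10.7 FPKM in WT, with a change of 0.44 (SE 0.13) that was not past the threshold with the block in limma. At 8308318 to 8315240, 1 row fell by 0.65 (SE 0.07) and the other was at 0.15 (SE 0.20). Whether such rows are overlapping genes on opposite strands is not given in the sources used.

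Among the rows below the filter, 1 lies inside the abundant stretch (18786694 to 18786993, 300 bases). It was listed at 0 in all 3 o11 libraries and at 5.18, 4.53 and 0 FPKM in WT replicates 1 to 3. A row at 24559986 to 24560479 was listed at 33.3 FPKM in o11 replicate 3 and 7.28 FPKM in WT replicate 1, and at 0 in the other 4 libraries.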
